A study of Homo sapiens with 6 samples.

Results

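The genes described here encode proteins of the last steps of oxidative phosphorylation. These steps use complex III, its electron acceptor cytochrome c, complex IV (cytochrome c oxidase) and complex V (the ATP synthase). The genes were every symbol on the array beginning with UQCR, COX4, COX5, COX6, COX7, COX8 or ATP5, together with CYC1 and CYCS. Pseudogenes were left out (2 symbols). This gave 46 genes of 21357 symbols in all. They were represented by 45 probe sets, since UQCRH and its intronless copy UQCRHL are measured by a single probe set. The 46 genes include the readthrough ATP5MF-PTCD1, whose probe sets are also annotated to PTCD1, so 44 measured values are counted among the complexes below. The Rieske subunit UQCRFS1, NDUFA4 and the mitochondrially encoded subunits were not analysed here.

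HCT116 cells, an epithelial line from a human colorectal carcinoma, had received a CDK4 siRNA pool plus a CDK6 siRNA (the CDK4/6 siRNA group), or a mixture of a non-targeting pool and a negative control siRNA (the control siRNA group), each component at 30 nM. Total RNA was taken 96 h after transfection and hybridised to Affymetrix arrays, 3 per group. CDK4 and CDK6 are kinases that drive passage through G1, and the series title places their inhibition beside MYC. All 6 samples are the same unmodified line in the same medium, the targeting is a transient knockdown, and the labels call the replicates biological without saying whether they were separate cultures. The p-values therefore cover the spread among these 6 arrays, which may be technical.

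Values are log2 expression after RMA (robust multi-array average), and differences are CDK4/6 siRNA minus control siRNA on that scale. A gene is called higher or lower, and said to have risen or fallen, at a limma adjusted p under 0.05 over the 20284 rows of the gene table, n = 3 arrays per group. The siRNA targets were lower in the CDK4/6 siRNA arrays, CDK6 by a log2 difference of -1.56 and CDK4 by -0.69, and MYC was higher (0.42). Pearson's r across genes, which are not independent, was 0.9979 to 0.9984 for arrays of a group and 0.991 to 0.994 for arrays of different groups. Of 7 epithelial markers, EPCAM and the keratins KRT8 and KRT18 were bright (array means in either group from 11.50 to 13.53), while CDX2 and VIL1 were dim (5.02 to 5.61). Of the 7, KRT8 (0.59), KRT18 (0.51) and the dimmer KRT20 (0.75) were called higher and CDH1 (-0.54) lower, where the largest difference among the 44 values described below was 0.50. CDH1 was not called on the mean of its probe sets (-0.27). Their part in the results below was not tested. Leukocyte markers (4 genes) had summed log2 levels of 18.8 to 19.5 in CDK4/6 siRNA arrays and 19.2 to 19.6 in control arrays, with 0 of 4 called. Fibroblast markers (4 genes) had 23.1 to 24.0 in CDK4/6 siRNA arrays and 23.8 to 24.5 in control arrays, with 1 of 4 called, COL1A1, lower (-0.49).

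Complex III takes electrons from ubiquinol and passes them to cytochrome c, a small soluble haem protein. Complex IV passes them on to oxygen, and both pump protons out of the mitochondrial matrix. ATP synthase lets the protons back in through a rotating ring of c subunits, and the turning shaft drives ATP formation in its F1 head. Several complex IV subunits exist in paired forms, one used in most tissues and one mainly in muscle, lung or testis.

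The promoter stretches of 9 of these genes are shown because they rose or fell and hold a searched motif, or, for ATP5MC1 and ATP5MC2, because they encode the same mature protein and moved in opposite directions. Each is 100 bases of RefSeq sequence (GRCh38.p14), 5′ to 3′ on the gene's strand. The stretch runs from 100 bases before the gene start to the base before it, except for ATP5PD (from -110), ATP5MK (from -200) and ATP5PB (from -250). Capitals mark motif matches on either strand.
ATP5MC1, chr17:48892687-48892786, plus strand: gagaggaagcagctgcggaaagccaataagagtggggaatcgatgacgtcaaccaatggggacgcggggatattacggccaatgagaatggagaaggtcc
ATP5MC2, chr12:53676084-53676183, minus strand: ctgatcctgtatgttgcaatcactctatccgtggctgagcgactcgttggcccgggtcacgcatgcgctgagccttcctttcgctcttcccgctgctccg
ATP5PB, chr1:111449214-111449313, plus strand: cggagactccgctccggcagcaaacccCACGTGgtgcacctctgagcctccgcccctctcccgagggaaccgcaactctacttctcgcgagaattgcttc
ATP5MK, chr10:103396576-103396675, minus strand: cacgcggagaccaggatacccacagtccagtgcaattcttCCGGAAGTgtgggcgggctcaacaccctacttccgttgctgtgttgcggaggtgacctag
ATP5PD, chr17:75046980-75047079, minus strand: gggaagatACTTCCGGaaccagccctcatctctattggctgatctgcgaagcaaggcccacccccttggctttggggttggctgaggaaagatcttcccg
ATP5F1C, chr10:7788077-7788176, plus strand: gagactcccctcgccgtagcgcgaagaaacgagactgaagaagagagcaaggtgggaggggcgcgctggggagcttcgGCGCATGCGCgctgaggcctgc
UQCRQ, chr5:132866542-132866641, plus strand: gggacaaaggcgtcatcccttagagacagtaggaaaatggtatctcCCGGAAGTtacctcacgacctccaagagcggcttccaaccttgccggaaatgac
UQCRC1, chr3:48609647-48609746, minus strand: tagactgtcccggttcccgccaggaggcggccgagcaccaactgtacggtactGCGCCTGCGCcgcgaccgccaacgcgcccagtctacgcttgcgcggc
COX8A, chr11:63974520-63974619, plus strand: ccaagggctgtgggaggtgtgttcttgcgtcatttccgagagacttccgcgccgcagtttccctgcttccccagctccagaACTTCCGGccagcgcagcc
The capitals are the NRF1 motif in ATP5F1C and UQCRC1, the ETS motif CCGGAAGT or its reverse complement in ATP5MK, ATP5PD, UQCRQ and COX8A, and the E-box CACGTG, the motif bound by MYC with MAX, in ATP5PB. A promoter window, from 250 bases before to 50 after the gene start, was at hand for 35 of the genes. The NRF1 motif was in 8 of these 35 windows (22.9%), against 8.57% of 15842 protein-coding promoters. The ETS motif was in 7 (20%), against 6.19%. The E-box was in 4 (11.4%), against 8.88%, and the YY1 motif AAGATGGCG in 2 (5.71%), against 2.74%. No match overlapped that of another motif in these windows. Among the 10 genes that rose and had a window, 1 held the NRF1 motif, 3 the ETS motif, 2 the E-box and 0 the YY1 motif. Among the 4 that fell, the counts were 1, 1, 0 and 1. ATP5MC1 also has an E-box 5 to 10 bases after its start, outside the stretch printed. A match describes the letters and was not tested for binding.

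Across the 44 values, 12 genes rose, 4 fell and 28 were not called. Over all genes 14.2% of rows were called higher and 13.0% lower (27.2% in either direction), against 36.4% in either direction among these genes. Of the 44, 38 had mean levels of 8 or above, while array medians over all probe sets lay from 5.36 to 5.39. The share over all genes, here and below, covers rows of every level. A share for rows of like level is not given here. The median difference was 0.05, against 0.00 over the gene table. Changes were small: the called genes had a median size of 0.21, against 0.35 for all called rows, and standard errors over the genes ran from 0.05 to 0.12. The values of the 2 groups did not overlap for 29 of 44 genes, 20 higher and 9 lower in the CDK4/6 siRNA arrays, against a background of 41.1% of rows (20.8% higher and 20.3% lower). Changes are relative to the bulk of the array. The hybridisation spike-ins were lower by 0.11 in the CDK4/6 siRNA arrays. When they set the scale of each array, the median of all rows moved to 0.11, 18 of the 44 were called higher and 0 lower, and the background was 24.2% higher and 6.78% lower (30.9% in either direction). In bulk RNA, fewer cells with a transcript and less of it per cell cannot be told apart.

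**Figure D1:**
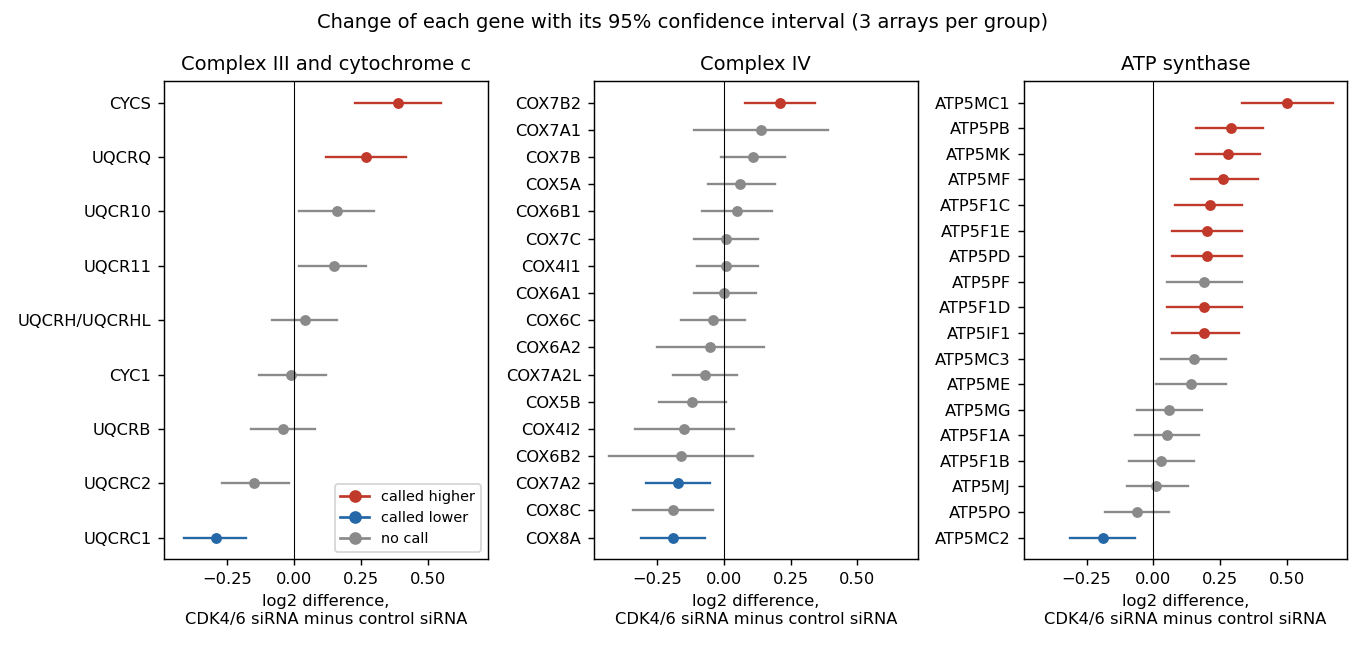
Log2 difference (x axis) of each gene (y axis), CDK4/6 siRNA minus control siRNA, with its 95% confidence interval, in 3 panels by complex. Red marks the genes called higher, blue those called lower and grey those not called. In the ATP synthase panel 9 genes are red and 1 is blue, in the complex IV panel 1 and 2.

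The ATP synthase genes, which here include the inhibitor ATP5IF1, held most of the calls. Of 18 values 9 rose and 1 fell (55.6% called, against 27.2% of the gene table), with a median difference of 0.19. The 18 had mean levels from 9.97 (ATP5IF1) to 13.46 (ATP5F1A). Whether their share of calls goes with level was not tested. Each array's median over the 18, taken as the distance from the control mean of each probe set, was 0.13, 0.20 and 0.18 in CDK4/6 siRNA arrays and 0.03, 0.01 and -0.04 in control arrays. Complex III had 1 higher and 1 lower of 8 (25% called) with a median of 0.02, and complex IV 1 higher and 2 lower of 17 (17.6% called) with a median of -0.04. The complex III share lies near the background and the complex IV share below it, and both moved with the processing. After spike-in scaling 12 ATP synthase, 3 complex III and 2 complex IV genes were called higher and 0 lower in each, with medians of 0.30, 0.13 and 0.07, beside 0.11 over all genes, since this scaling moves every gene alike. The difference between the complexes was not tested.

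In the rotor of ATP synthase, 3 genes (ATP5MC1, ATP5MC2 and ATP5MC3) encode the same mature c subunit with different import signals. ATP5MC1 had 10.91, 10.83 and 10.94 in CDK4/6 siRNA arrays and 10.53, 10.39 and 10.27 in control arrays. It rose by 0.50 (SE 0.074, 1.41-fold, limma adjusted p = 0.00129), the largest change among the 44, and every CDK4/6 siRNA array lay above every control array. ATP5MC2 had 11.34, 11.40 and 11.42 in CDK4/6 siRNA arrays and 11.54, 11.58 and 11.61 in control arrays. It fell to 87.7% of the control level (-0.19, SE 0.053, limma adjusted p = 0.0283), again without overlap. The call of ATP5MC2 ended in 5 of the 6 fits that left out 1 array and with the spike-in scaling (-0.08), and its other probe set, dim at 5.07, gave -0.02. ATP5MC3 had 12.65, 12.65 and 12.69 in CDK4/6 siRNA arrays, against 12.56, 12.50 and 12.47 in control arrays (0.15, limma adjusted p = 0.0663). It did not pass the threshold although its groups were apart. ATP5MC3 passed after spike-in scaling (0.26), with median centring (0.17), on other probe sets (0.20) and on the mean of its probe sets (0.31). The same held with the dimmest rows left out, with trend and robust options and without variance moderation. It stayed uncalled in the other alternatives, among them quantile normalisation and every fit without 1 array. Per array, ATP5MC1 minus ATP5MC3 differed by 0.34 between the groups (SE 0.053) and ATP5MC2 minus ATP5MC3 by -0.34 (SE 0.049). Each gave a two-sided exact permutation p = 0.1, the smallest that 3 arrays against 3 allow, and 0.3 adjusted over 9 isoform pairs.

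In the F1 head, the large subunits that form its ring did not pass the test. ATP5F1B, the catalytic beta subunit, differed by 0.03 (95% interval -0.09 to 0.15), and its partner alpha, ATP5F1A, by 0.05 (-0.07 to 0.17). The subunits of the central shaft were higher. ATP5F1C, the gamma subunit, had 12.51, 12.56 and 12.51 in CDK4/6 siRNA arrays and 12.35, 12.35 and 12.27 in control arrays (0.21, limma adjusted p = 0.0202). ATP5F1E, epsilon, had 12.42, 12.56 and 12.53 in CDK4/6 siRNA arrays and 12.32, 12.30 and 12.28 in control arrays (0.20, limma adjusted p = 0.0287). ATP5F1D, delta, had 10.14, 10.07 and 10.05 in CDK4/6 siRNA arrays and 9.95, 9.93 and 9.80 in control arrays (0.19, limma adjusted p = 0.0474). In all 3 the groups were separate, yet ATP5F1D lost its call in each of the 6 fits without 1 array, ATP5F1E in 5 and ATP5F1C in 3. A dim further probe set of ATP5F1C, at a mean of 5.31, fell by 0.42 (limma adjusted p = 0.00474 over all probe sets). The 2 other bright ones gave 0.20 and 0.19, neither called over all probe sets. The mean of all ATP5F1C probe sets gave 0.04 without a call.

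The peripheral stalk, which holds F1 still against the turning ring, had 2 of 4 subunits called (50%, against 27.2% over all genes). That share rests on 4 genes only. ATP5PB, subunit b, had 13.13, 13.21 and 13.18 in CDK4/6 siRNA arrays and 12.92, 12.88 and 12.85 in control arrays. It rose by 0.29 (SE 0.054, 1.22-fold, limma adjusted p = 0.00425). ATP5PD, subunit d, had 12.76, 12.80 and 12.80 in CDK4/6 siRNA arrays and 12.60, 12.63 and 12.51 in control arrays (0.20, limma adjusted p = 0.026). The groups were apart for both, but the call of ATP5PD ended in 3 of the fits without 1 array. The only other ATP5PD probe set, dim at 6.28, gave -0.05, and the mean of both gave 0.08 without a call. ATP5PF, coupling factor 6, missed the threshold at 0.19 (limma adjusted p = 0.051), and ATP5PO, the oligomycin sensitivity protein, gave -0.06. Among other alternatives, ATP5PF was called higher after spike-in scaling (0.30), with median centring (0.21) and without CDK4/6 siRNA replicate 1 (0.24). It was called in no other fit without 1 array.

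Small membrane subunits that join ATP synthase into dimers were in part higher. ATP5MK had 13.31, 13.37 and 13.35 in CDK4/6 siRNA arrays and 13.09, 13.08 and 13.02 in control arrays (0.28, SE 0.053, limma adjusted p = 0.00451). ATP5MF, subunit f, had 11.65, 11.71 and 11.66 in CDK4/6 siRNA arrays and 11.47, 11.42 and 11.34 in control arrays (0.26, SE 0.057, limma adjusted p = 0.00828). Its probe set also carries the symbol ARMC2-AS1, and the only other ATP5MF probe set, dim at 4.59, gave -0.03. ATP5ME (0.14), ATP5MG (0.06) and ATP5MJ (0.01) were not called. A second ATP5MJ probe set rose by 0.26 (limma adjusted p = 0.016 over all probe sets). The inhibitor ATP5IF1, which stops the enzyme from running backwards, had 10.02, 10.07 and 10.10 in CDK4/6 siRNA arrays and 9.87, 9.91 and 9.83 in control arrays (0.19, limma adjusted p = 0.0268). Its groups were separate, and the call ended in 4 of the fits without 1 array. The readthrough ATP5MF-PTCD1 was called higher as well (0.25, limma adjusted p = 0.021), on a probe set shared with PTCD1, and its other probe set gave -0.03.

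**Figure D2:**
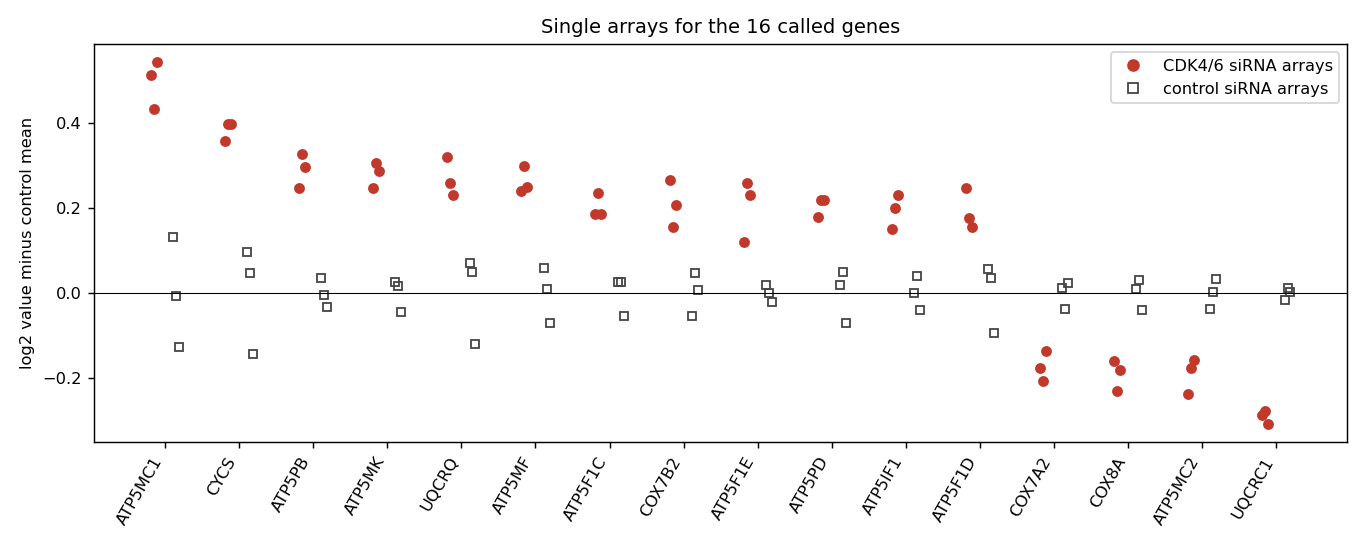
Log2 value of each array minus the control mean (y axis) for the 16 called genes (x axis), CDK4/6 siRNA arrays as filled circles and control siRNA arrays as open squares. For every gene shown the 3 CDK4/6 siRNA arrays lie on one side of the 3 control arrays, above for 12 genes and below for 4.

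Cytochrome c, which carries electrons to complex IV and triggers caspases when released into the cytosol, was higher. CYCS had 12.91, 12.95 and 12.95 in CDK4/6 siRNA arrays and 12.65, 12.60 and 12.41 in control arrays. It rose by 0.39 (SE 0.071, 1.31-fold, limma adjusted p = 0.00365), with the controls more widely spread (SD 0.13) than the CDK4/6 siRNA arrays (SD 0.02). A second, dim CYCS probe set rose by 0.74 and the other, dimmer still, gave 0.37 without passing.

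Within complex III the subunits split. UQCRC1, a core subunit on the matrix side, had 10.99, 11.00 and 10.97 in CDK4/6 siRNA arrays and 11.26, 11.29 and 11.28 in control arrays. It fell to 81.7% of the control level (-0.29, SE 0.05, limma adjusted p = 0.00278), the deepest fall among the 44, with the call lost under the spike-in scaling (-0.18, adjusted p = 0.0572). UQCRC2, the other core subunit, had 11.83, 11.89 and 11.88 in CDK4/6 siRNA arrays and 12.04, 12.04 and 11.96 in control arrays (-0.15, limma adjusted p = 0.0823). It was lower in every CDK4/6 siRNA array but did not pass. UQCRC2 was called lower with quantile normalisation (-0.18), with trend and robust options and on the mean of its probe sets (-0.24). The same held on plain-name probe sets, those without the suffix of shared probes (-0.20). It stayed uncalled in the other alternatives, among them every fit without 1 array. UQCRQ, a small subunit, had 12.20, 12.14 and 12.11 in CDK4/6 siRNA arrays and 11.95, 11.93 and 11.76 in control arrays. It rose by 0.27 (SE 0.067, limma adjusted p = 0.0158), a call that ended without CDK4/6 siRNA replicate 1 (0.25) and without variance moderation. The small subunits UQCR10 (0.16, limma adjusted p = 0.0948) and UQCR11 (0.15, 0.0778) were higher in every CDK4/6 siRNA array without passing. Both were called higher on plain-name probe sets, on the mean of their probe sets, after spike-in scaling and with trend and robust options. Neither was called in any fit without 1 array. CYC1, the haem-bearing cytochrome c1, gave -0.01, UQCRB -0.04 and the probe set of the hinge protein UQCRH and UQCRHL 0.04.

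Among complex III, complex IV and ATP synthase, complex IV had the lowest share of called genes, 17.6%. Of 11 widely expressed subunits 0 rose and 2 fell (18.2% called). Over all genes 14.2% were called higher and 13.0% lower (27.2% in either direction). COX8A had 12.29, 12.22 and 12.27 in CDK4/6 siRNA arrays and 12.46, 12.48 and 12.41 in control arrays (-0.19, 87.8% of the control level, limma adjusted p = 0.0291). COX7A2 had 12.55, 12.52 and 12.59 in CDK4/6 siRNA arrays and 12.74, 12.69 and 12.75 in control arrays (-0.17, 88.8% of the control level, limma adjusted p = 0.0413). Both were lower in every CDK4/6 siRNA array, and both calls were lost with the spike-in scaling (-0.08 and -0.06) and, without 1 array at a time, in 4 and 6 of 6 fits. COX4I1, a subunit through which ATP regulates the enzyme, gave 0.01 (95% interval -0.10 to 0.13), COX5A 0.06 (-0.06 to 0.19), COX6A1 0.00 (-0.11 to 0.12) and COX7C 0.01 (-0.11 to 0.13). COX5B (-0.12), COX6B1 (0.05), COX6C (-0.04), COX7B (0.11) and COX7A2L (-0.07), which links complexes III and IV into supercomplexes, were not called either.

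The tissue isoforms of complex IV had dim probe sets, with means over the 6 arrays from 3.61 for COX8C to 6.09 for COX4I2, where array medians over all probe sets lay from 5.36 to 5.39. COX4I2, the lung form that hypoxia can induce, had 5.90, 6.05 and 6.10 in CDK4/6 siRNA arrays and 6.06, 6.13 and 6.30 in control arrays (-0.15, limma adjusted p = 0.239), with overlap. COX7B2, a testis form, was called higher (0.21, limma adjusted p = 0.0251) at 4.30, 4.19 and 4.24 in CDK4/6 siRNA arrays and 3.98, 4.08 and 4.04 in control arrays, a level at which no detection call was at hand. That call ended with trend and robust options and in 4 of the fits without 1 array. The muscle forms COX6A2 (-0.05) and COX7A1 (0.14) and the testis forms COX6B2 (-0.16) and COX8C (-0.19) were not called. Of 6 muscle markers 1 was higher (TNNC1, 0.37) and 1 lower (TNNT1, -0.41), the first lost in 3 of the fits without 1 array, with summed log2 levels of 34.9 to 35.2 in CDK4/6 siRNA arrays and 35.2 to 35.7 in control arrays. Of 6 male germ cell markers 0 were called, with sums of 29.1 to 29.9 in CDK4/6 siRNA arrays and 29.6 to 30.1 in control arrays. The part of such cells in these levels was not tested.

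The change of each tissue isoform was set against that of its widely expressed partner. COX7A1 minus COX7A2 differed by 0.31 between the groups (SE 0.14, exact permutation p = 0.2) and COX6B2 minus COX6B1 by -0.21 (SE 0.17, exact permutation p = 0.3), with overlapping values in both. COX4I2 minus COX4I1 gave -0.16 (SE 0.10), COX7B2 minus COX7B 0.10 (SE 0.063), COX6A2 minus COX6A1 -0.06 (SE 0.10) and COX8C minus COX8A 0.00 (SE 0.077). Among the complex IV pairs only COX7A2L minus COX7A2 was apart, at 0.10 (SE 0.024), higher in all 3 CDK4/6 siRNA arrays. Over the 9 pairs the adjusted exact permutation p ran from 0.3 to 1, and none could have passed with 3 arrays per group.

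**Figure D3:**
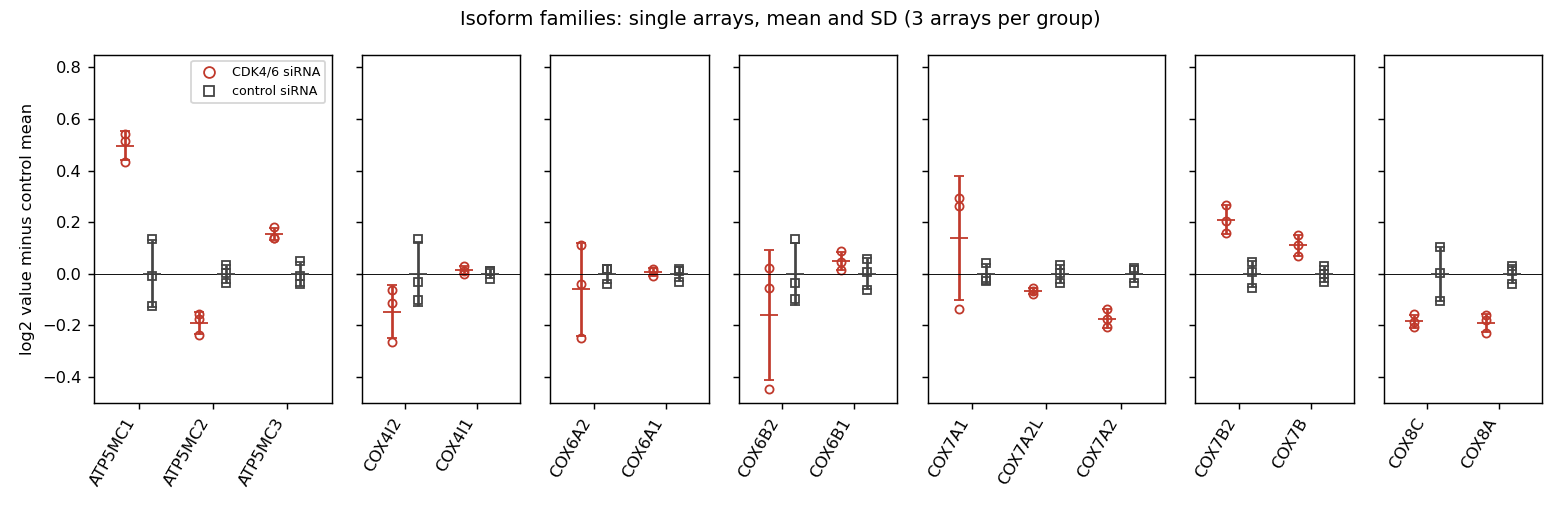
Log2 value minus the control mean (y axis) for genes of 7 isoform families (x axis), single arrays with mean and SD, CDK4/6 siRNA as circles left of control siRNA as squares. ATP5MC1 and ATP5MC2 lie on opposite sides of the control mean, at 0.50 and -0.19, and COX4I1 lies at 0.01.

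Probe sets other than the brightest gave a further view of the same genes. Of 41 such probe sets, 12 were called higher and 2 lower (34.1%). Of 22608 probe sets that carry a symbol without standing for a gene, 8.91% were called higher and 7.76% lower (16.7%), and of all 54613 probe sets 8.86% and 8.17% (17.0%). Several dim ones changed more than the bright probe set of their gene. For COX7B the dim probe set (mean 5.68) rose by 1.07 and the bright one (mean 12.25) gave 0.11. UQCR11 rose by 0.66 on a probe set at 7.43, UQCRB by 0.60 at 4.90, ATP5MC3 by 0.57 at 7.69, UQCR10 by 0.52 at 7.41 and COX5A by 0.44 at 6.80, whereas the bright probe sets of all these genes were not called. The dim UQCRC2 probe set fell by 0.38. Of the 16 called genes, COX7A2, COX7B2, COX8A, ATP5F1D, ATP5F1E, ATP5IF1, ATP5MC2 and ATP5PD lost the call in the fit over all probe sets. There the limma adjusted p of their brightest probe sets ran from 0.0524 (COX7B2) to 0.0878 (COX7A2). In the fit over the gene table, 9 of 25 genes with more than 1 probe set were called on the brightest. Their other probe sets were judged in the fit over all probe sets. Among these 9, 4 had another probe set called in the same direction and 1 (ATP5F1C) in the opposite direction. A further 9 of the 25 were not called on the brightest probe set but had another one called. Which transcripts these probe sets match, and whether bright ones are damped near the array maxima of 14.71 to 14.76, was not tested.

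**Figure D4:**
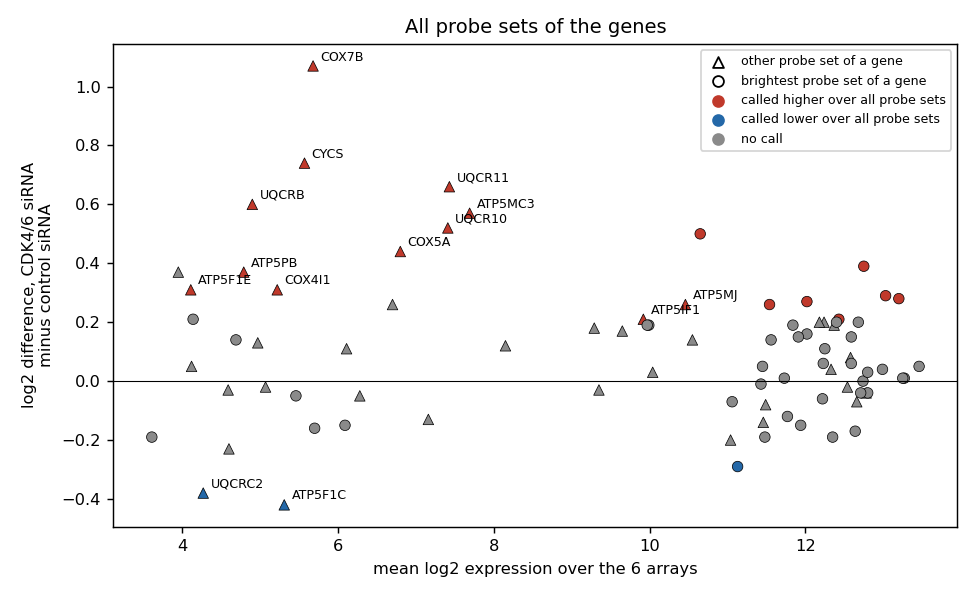
Log2 difference, CDK4/6 siRNA minus control siRNA (y axis), against the mean log2 level over the 6 arrays (x axis) for every probe set of the genes, circles for the brightest of a gene and triangles for the others, coloured by the call over all probe sets. The red triangles at the left and centre include COX7B at 1.07 and CYCS at 0.74, while most circles lie at levels above 8.

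The genes that build these complexes were read in the same fit. Over all genes 14.2% were called higher and 13.0% lower. Of 9 complex III assembly factors 6 rose and 0 fell (66.7% called), with a median of 0.22. LYRM7, which holds the Rieske subunit before its insertion, rose by 1.20 (SE 0.11, limma adjusted p = 0.000176), at means of 9.38 in CDK4/6 siRNA arrays and 8.19 in control arrays. BCS1L, which moves the Rieske subunit across the inner membrane, rose by 0.71 (not called without variance moderation), UQCC4 by 0.44 and UQCC5 by 0.38. Of 28 complex IV assembly factors 13 rose and 1 fell (50% called), with a median of 0.18. The one called lower was the copper chaperone COX17 (-0.26), on a probe set also annotated to POPDC2. Its single-symbol probe sets gave -0.13 without a call, and the call also ended after spike-in scaling (-0.15), without variance moderation, and without CDK4/6 siRNA replicate 1 (-0.23) or control siRNA replicate 2 (-0.22). COA7 rose by 0.81 (SE 0.065, limma adjusted p = 9.8e-05), the copper-site proteins SCO1 and SCO2 by 0.72 and 0.67, and HIGD1A by 0.69. HCCS, which attaches haem to cytochromes c and c1, rose by 0.42. Of 6 ATP synthase assembly factors 1 rose, TMEM70, which helps build the c ring, by 0.48, and 0 fell (16.7% called). On plain-name probe sets, those without the suffix of shared probes, TMEM70 gave 0.16 and was not called, and with the mean of all its probe sets UQCC5 gave 0.10 and was not called. After spike-in scaling 7 complex III, 19 complex IV and 1 ATP synthase assembly factors were called higher and 0 lower, against 24.2% and 6.78% of all genes.

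Other respiratory genes gave the following counts in the same fit. Of 36 nuclear complex I subunits 11 rose and 1 fell (33.3% called, against 27.2% over all genes, median 0.08). The rises were led by NDUFS5 (0.32), NDUFB2 (0.34), NDUFS1 (0.27) and NDUFS6 (0.31). Without CDK4/6 siRNA replicate 1, 7 were called higher, and the share over all genes in that fit is not given here. The one called lower was NDUFS7 (-0.20), a call that ended in 5 of the 6 fits without 1 array, after spike-in scaling (-0.09) and on plain-name probe sets (-0.04). After spike-in scaling 18 were higher and 0 lower, against 24.2% and 6.78% over all genes. Of 3 complex II subunits 0 were called, with SDHC at 0.16, SDHD at 0.02 and SDHA at -0.11. SDHA was called lower on plain-name probe sets (-0.44) and on the mean of its probe sets (-0.28), and SDHC was called higher in 5 alternatives, among them spike-in scaling (0.27). Of 9 nuclear regulators of respiratory genes 3 rose and 1 fell (44.4% called, against 27.2% over all genes). Those that rose were the coactivators PPARGC1B (0.87) and PPRC1 (0.59) and the mitochondrial DNA factor TFAM (0.31). NRF1 (-0.30), which binds the motif of that name, fell. TFAM lost its call without control siRNA replicate 2 (0.27) or 3 (0.28), on plain-name probe sets (0.12) and without variance moderation, and NRF1 when spike-ins set the scale (-0.20) or all its probe sets were averaged (-0.10). In the hypoxia-linked list 3 of 5 fell and 1 rose, HIGD1A (80% called, against 27.2% over all genes). Those that fell were BNIP3 (-0.66), PDK1 (-0.53) and the protease LONP1 (-0.24), which degrades COX4I1 in hypoxia. HIGD1A was also counted among the complex IV assembly factors, and COX4I2, the uncalled gene of this list, among the 44 values. LONP1 was not called when spike-ins set the scale (-0.13).

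**Figure D5:**
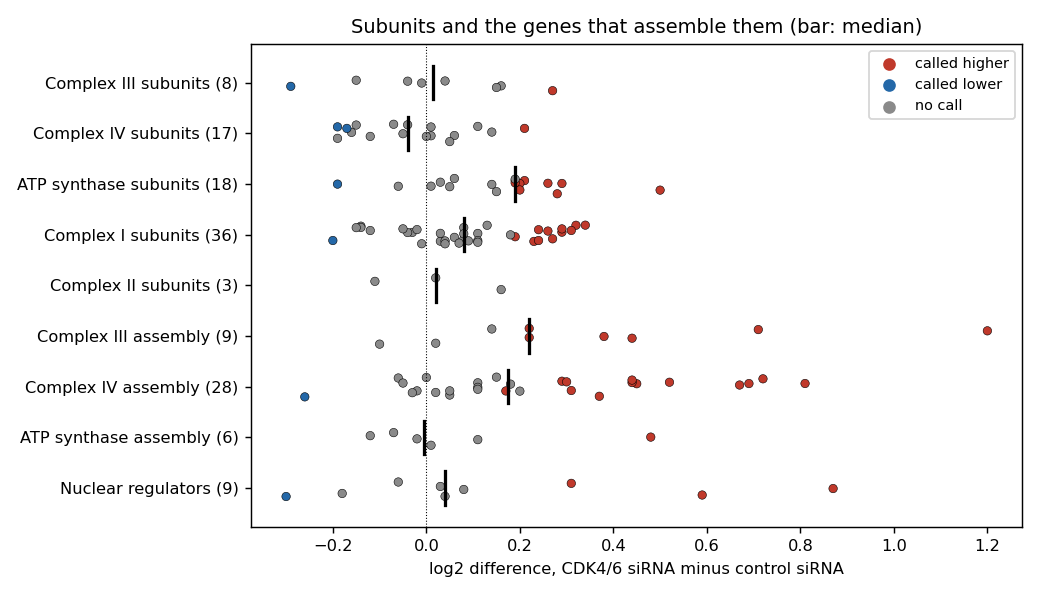
Log2 difference, CDK4/6 siRNA minus control siRNA (x axis), of each gene in 9 lists (y axis, number of measured values in brackets), coloured by call, with a bar at the median of each list. The ATP synthase median lies at 0.19 and the complex IV median at -0.04, and the highest points are LYRM7 at 1.20 and PPARGC1B at 0.87.

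Leaving out 1 array at a time left 6 to 11 of the 44 called higher and 1 to 3 lower. Those called in all 6 of these fits were ATP5MC1, ATP5PB, ATP5MK, ATP5MF and CYCS, higher, and UQCRC1, lower, 6 of the 16. The count higher was 6 without CDK4/6 siRNA replicate 3 or without control siRNA replicate 3 and 7 without CDK4/6 siRNA replicate 2. The count lower was 1 without CDK4/6 siRNA replicate 2 or 3 or control siRNA replicate 2, and 2 without CDK4/6 siRNA replicate 1 or control siRNA replicate 3. The share of all genes called in these fits is not given here, so the counts were not set against a background.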

How the data were processed

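Expression was measured on 6 single-channel Affymetrix arrays, 3 per group. The authors' deposited table holds log2 values. RMA is named in the submitters' processing notes, with its version not given in the sources used here. RMA equalises the arrays, so a change in total RNA cannot be seen. Of 54675 probe sets, 62 controls were left out; 41091 carried 1 gene symbol, 1801 several and 11721 none.

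For every symbol, alone or among several, the probe set with the highest mean stood for the gene, which gave 20284 rows. A RefSeq gene table (GRCh38.p14) held 21308 of the 21357 symbols and served to drop pseudogenes. CDK4/6 siRNA was compared with control siRNA with limma 3.58.1 (R 4.3.3; lmFit, then eBayes), with Benjamini-Hochberg adjustment over all rows and a threshold of 0.05. No set test was run. The fit was tested on simulated data. Isoform pairs were compared by exact permutation over arrays.

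The members, lists and tests were chosen with earlier results of these data known. Named are all members, CDK4, CDK6 and MYC, up to 4 genes per pathway list by adjusted p, and the single genes behind small counts. COX17, NDUFS7, TNNC1, TNNT1 and, among the markers, EPCAM, KRT8, KRT18, KRT20, CDH1, CDX2, VIL1 and COL1A1 were named after their values were seen. Divergent transcripts and readthroughs were left out of the complex I list. Same-numbered arrays deviated from their group means with correlations of -0.0079, -0.12 and -0.0047, so numbers were not used as a block. Motifs were searched on both strands. Figures were drawn with matplotlib 3.10.9.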

Additional observations from a re-analysis of the deposited data

How the results depend on the processing

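Directions of the 16 called genes held in each alternative run except those that chose other probe sets. On plain-name probe sets ATP5F1C turned to -0.42, ATP5PD to -0.05, ATP5MF to -0.03 and the readthrough ATP5MF-PTCD1 to -0.03, and with single-symbol probe sets ATP5MF turned to -0.03; each then rests on another, dimmer probe set. The counts called were 12 higher and 4 lower over all complexes, 1 and 1 in complex III, 1 and 2 in complex IV and 9 and 1 in ATP synthase. With the replicate number as a block (replicate block) they were 7 and 1 over all complexes, 0 and 0 in complex IV and 5 and 0 in ATP synthase; the numbers are not said to pair the arrays, and 0 of 6 arrays correlated best with its own number. With the spike-in scaling 0 were lower in all, 3 and 0 were called in complex III, 2 and 0 in complex IV and 0 lower in ATP synthase. At an adjusted p under 0.01 the counts were 5 and 1 in all, 0 higher in complex III, 0 and 0 in complex IV and 4 and 0 in ATP synthase. On plain-name probe sets they were 3 and 2 in complex III, 2 and 0 in complex IV and 5 higher in ATP synthase. With the mean of all probe sets they were 3 and 2 in complex III, 3 higher in complex IV and 0 lower in ATP synthase. In complex III, quantile normalisation gave 2 lower, median centring 2 higher, the dimmest 25% of rows left out 2 higher, trend and robust options 3 and 2, and no variance moderation 0 higher. In complex IV, median centring gave 1 lower and the dimmest 25% of rows left out 0 higher. Leaving out 1 array gave 6 to 11 higher and 1 to 3 lower in all, 0 to 1 higher in complex III, 0 to 1 higher and 0 to 1 lower in complex IV, and 4 to 9 higher and 0 to 1 lower in ATP synthase. Except for the spike-in scaling, the share of all genes called in each alternative is not given here. The counts in those alternatives were therefore not set against a background. Precision is limited by having 3 arrays per group, and the cause of the shifts between settings was not tested. Some genes without a call gained one in at least 1 alternative. Beside UQCRC2, UQCR10, UQCR11, ATP5MC3 and ATP5PF, these were COX5A, COX5B, COX7A1, COX7B, COX8C, ATP5ME and ATP5MJ. Alternatives for the pathway lists and markers were chosen after seeing the data.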
